A study of Homo sapiens with 18 samples.

Results

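Metallothioneins are small proteins, rich in cysteine, that bind zinc and copper and buffer the free metal in the cell. The isoforms of types 1 and 2 are made in most tissues, and the third type is best known from the brain. Their genes lie side by side on the long arm of chromosome 16. Genes of types 1 and 2 are classic targets of MTF1, a transcription factor that binds zinc and then attaches to short DNA motifs called metal response elements in their promoters. The 9 genes described here are MT1A, MT1E, MT1F, MT1G, MT1H, MT1M, MT1X, MT2A and MT3. They were chosen by name from the 22336 genes of an mRNA-seq table, and the set was selected on the table's response to TSA, which is therefore not a finding here. All 9 names were found.

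The cells were LNCaP, a line from a metastasis of a human prostate cancer. They were kept in medium with charcoal-stripped serum, and then treated for 24 h with trichostatin A (TSA), an inhibitor of histone deacetylases, at 100 ng/ml, or with the vehicle DMSO. Each treatment had 3 ATAC-seq libraries, which map accessible chromatin, and 3 mRNA-seq libraries. A further 3 mRNA-seq libraries came from untreated cells. WHG-STARR-seq was run in LNCaP cells with 2 output libraries and 1 input library of plasmid DNA. This assay places random genomic fragments inside a reporter transcript and measures how strongly each fragment drives that transcript, away from its own place in chromatin.

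Peaks and enhancers were assigned to the genes by position in hg19. A region was taken where its centre lay within 50 kb of any of the 16 annotated start sites of the 9 genes, which span 93.4 kb. This gave 11 of 40995 ATAC-seq peaks in TSA-treated cells, 7 of 38813 in vehicle-treated cells, and 2 of 94527 STARR-seq enhancers. The values used here were averages or pools. Each gene has 1 expression value, an average made in the authors' comparison of TSA with vehicle. Whether the untreated libraries entered that average is not stated in the sources. Each peak list was called on pooled libraries. No error between replicates, depth per library or test between TSA and vehicle could be computed from them, and the level of a gene in TSA-treated cells and that in vehicle-treated cells cannot be told apart.

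The genes follow each other on chromosome 16 in the order given here, with the GENCODE gene spans in hg19. MT3 runs from 56622986 to 56625000, MT2A from 56642496 to 56643409 and MT1E from 56659387 to 56661024. MT1M runs from 56666571 to 56667893, MT1A from 56672578 to 56673999 and MT1F from 56691643 to 56694610. MT1G runs from 56700642 to 56701977, MT1H from 56703726 to 56705041 and MT1X from 56716382 to 56718108. MT1G is read from the minus strand and the other 8 from the plus strand, so that MT1G and MT1H start next to each other and point apart.

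The promoter sequences of MT2A, MT1H and MT1X are shown first, with matches to the core of the metal response element, the motif through which the family is known to be switched on. MT2A and MT1X had ATAC-seq peaks over these bases in both conditions, and MT1H had none in either. RefSeq promoter entries (table build GRCh38.p14) were found for these 3 of the 9 genes alone, so the promoters of the others were not searched. Each entry matched a single place in GRCh37, the assembly of hg19. The 250 bases before the start site are given on the plus strand, 5′ to 3′, with core matches of the element in capitals. The MT2A stretch is chr16:56642246-56642495, the MT1H stretch is chr16:56703476-56703725 and the MT1X stretch is chr16:56716132-56716381.
MT2A: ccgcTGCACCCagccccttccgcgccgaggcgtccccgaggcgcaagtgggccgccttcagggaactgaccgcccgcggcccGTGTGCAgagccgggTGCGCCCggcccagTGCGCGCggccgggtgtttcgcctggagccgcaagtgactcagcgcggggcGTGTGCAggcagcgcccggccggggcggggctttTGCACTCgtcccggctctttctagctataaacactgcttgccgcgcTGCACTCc
MT1H: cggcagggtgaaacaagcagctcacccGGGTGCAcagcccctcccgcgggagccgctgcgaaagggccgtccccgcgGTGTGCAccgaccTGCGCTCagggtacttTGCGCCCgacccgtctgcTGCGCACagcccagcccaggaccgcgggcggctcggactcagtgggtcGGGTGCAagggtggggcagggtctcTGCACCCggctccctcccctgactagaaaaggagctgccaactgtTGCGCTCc
MT1X: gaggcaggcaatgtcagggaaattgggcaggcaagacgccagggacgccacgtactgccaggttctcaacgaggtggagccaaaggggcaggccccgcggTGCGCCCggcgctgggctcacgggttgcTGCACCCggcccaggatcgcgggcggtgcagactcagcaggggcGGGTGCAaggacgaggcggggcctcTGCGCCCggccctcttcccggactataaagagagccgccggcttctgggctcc

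The core was searched as TGCACNC and TGCGCNC on both strands, from 250 bases before to 50 bases after the start site, with overlapping matches counted as 1 site. MT2A held 8 core sites, of which 7 lay before the start, MT1H held 8, all before the start, and MT1X held 4, all before the start. Of 35116 RefSeq promoters of the same length, 29.6% held at least 1 core site, 7.51% held at least 2, 0.339% held at least 4 and 0.0342% held at least 7. A match of letters is a description of the sequence and does not show that a factor was bound.

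The 3 promoters shared part of their layout. A core began 54 bases before the start in MT2A and 53 bases before it in MT1H and in MT1X. The next core upstream began 88 bases before the start in MT2A, and 78 bases before it in both MT1H and MT1X. A core also began 8 bases before the start in MT2A and in MT1H. The letters TATAAA, the TATA box, began 29 bases before the start in MT2A and 30 bases before it in MT1X, and these letters were not found in the MT1H window. They occurred in 7.33% of RefSeq promoters. The GC box GGGCGG, searched on both strands, was found at 2 places in MT2A, 1 in MT1H and 2 in MT1X, and in 45.0% of RefSeq promoters. In MT1X, the GC box that began 82 bases before the start overlapped the core that began 78 bases before it. The windows were rich in G and C, at 72.0% in MT2A, 68.3% in MT1H and 67.0% in MT1X, against a median of 58.7% over RefSeq promoters. They held 37, 25 and 26 CpG dinucleotides in that order of genes, against a median of 14.

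**Figure D1:**
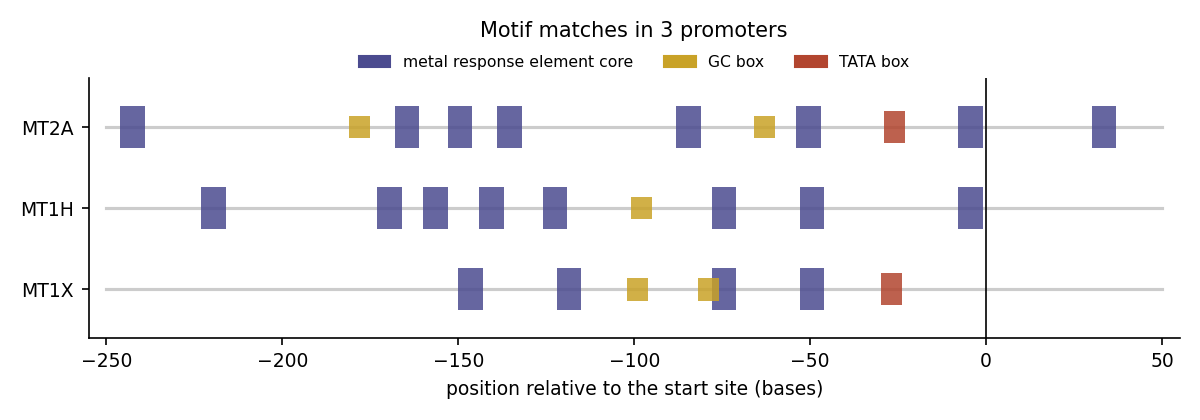
Motif matches in the promoters of MT2A, MT1H and MT1X, by position in bases relative to the start site at 0. Blue boxes are metal response element cores, yellow boxes are GC boxes and red boxes are TATA boxes; MT2A and MT1H hold 8 cores each and MT1X holds 4.

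The mRNA-seq averages, which pool the treatments, had a wide range within the 9 genes. All 9 averaged at least 1 CPM (read counts scaled to the total of each library), as did 66.3% of the 22336 genes. Their median was 3.38 log2 CPM, against 2.94 log2 CPM over all genes. Levels of different genes are compared per length. The transcripts are short, at 396 to 425 bases for 8 of the genes and 746 bases for MT1E, taking the canonical transcript of GENCODE. The median percentile of the 9 genes was 84.4 per kb of transcript among genes with a transcript length, against 53.4 without the length. The 9 genes were selected on their response in this same table, and a response needs reads in at least 1 treatment. That selection favours genes with reads, so these comparisons with all genes are descriptions only.

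MT2A, a major isoform of most human tissues, was the highest per length. Its average was 6.30 log2 CPM, or 79.1 CPM, and 7.62 log2 CPM per kb of transcript, above 98.5% of genes. MT1X was next, with an average of 5.36 log2 CPM, or 41.2 CPM, and 6.67 log2 CPM per kb, above 96.6% of genes. MT1G followed, with 4.24 log2 CPM, or 18.9 CPM, and 5.53 log2 CPM per kb, above 91.8% of genes. These 3 genes lie at different places in the cluster, MT2A near the MT3 end and MT1G and MT1X near the other.

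The other type 1 genes, whose zinc-binding proteins are close relatives of these, were lower per length. On the log2 CPM per kb scale MT1M averaged 4.71, MT1F 4.62 and MT1A 4.55. MT1E and MT1H each averaged 3.91 on that scale. Their averages without the length were 3.38 log2 CPM for MT1M and for MT1F, 3.21 for MT1A, 3.49 for MT1E and 2.58 for MT1H. MT3, the isoform of the brain that was first described as an inhibitor of neurite growth, was the lowest at 3.21 log2 CPM per kb, above 67.0% of genes. Its average was 1.91 log2 CPM, or 3.75 CPM. These are bulk libraries, in which a low level in every cell and a high level in few cells cannot be told apart. Without values per library, no neighbours in this order can be said to differ beyond their spread.

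**Figure D2:**
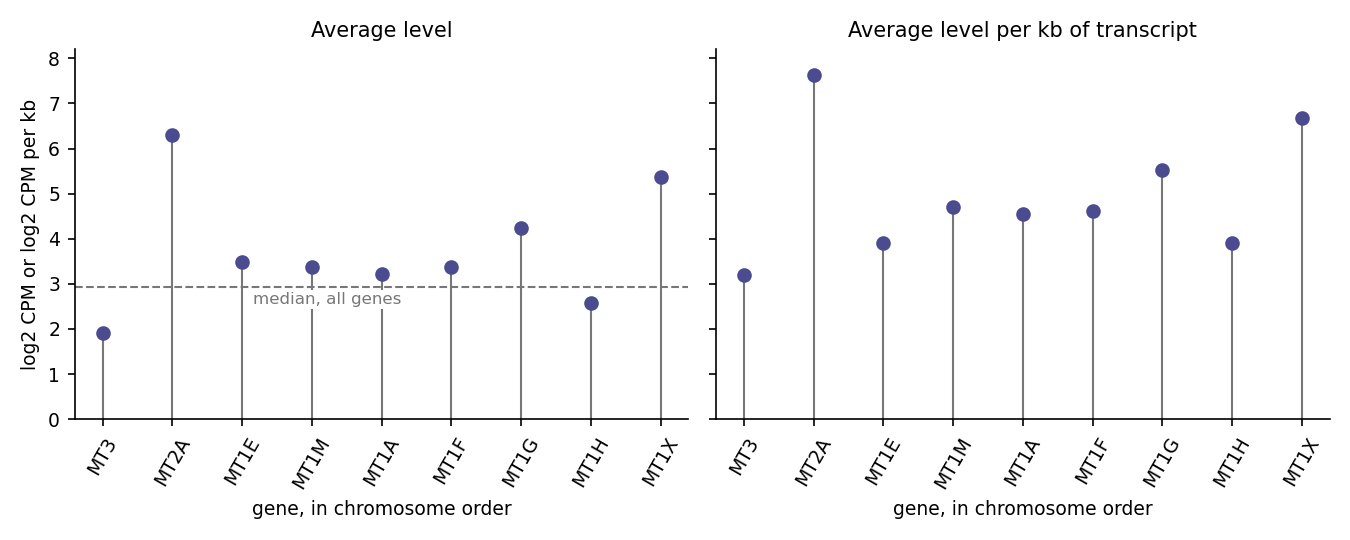
Average expression of the 9 genes in chromosome order, as log2 CPM (left) and log2 CPM per kb of transcript (right); each point is the authors' pooled average over treatments, and the dashed line on the left is the median of all genes. Per kb, MT2A is highest at 7.62 and MT3 lowest at 3.21.

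The near-identity of the family bears on how far reads can be given to 1 gene. The mRNA-seq reads were single-end and 50 bases long. MT3 had no 50-base window of its transcript that was found elsewhere in the genome or in another gene's transcript. For the other genes, a window counted as repeated if it was found at another place in the genome. A window across a splice junction also counted if another gene's transcript held it. The share of repeated windows was 5.76% in MT1A, 6.12% in MT1F, 11.1% in MT2A, 18.6% in MT1M, 20.1% in MT1E, 20.4% in MT1H and 21.3% in MT1G. It was 33.8% in MT1X. Windows shared with another gene's transcript were counted separately. In MT1X, 33.0% were shared with ENSG00000259827, an overlapping gene on the same strand, and 13.2% with MT1G. Windows shared only with an overlapping gene at the same place, and not across a junction, are not part of the 33.8%. In MT1H, 17.2% of windows were shared with MT1HL1, and in MT1M 10.3% with MT1JP. How reads that map to several places or to overlapping genes were counted is not given in the sources used here, so the levels of these genes are uncertain to that extent.

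ATAC-seq peaks marked the start sites of MT3, MT2A, MT1F, MT1G and MT1X in TSA-treated cells, and the same genes without MT1G in vehicle-treated cells. MT1E, MT1M, MT1A and MT1H had no start-site peak in either list. A start-site peak overlapped the stretch from 1000 bases before to 100 bases after a start. The counts were thus 5 of 9 genes in TSA-treated cells, where 59.8% of 21523 genes had such a peak, and 4 of 9 in vehicle-treated cells, where 55.4% had. Those shares include genes below 1 CPM, while all 9 genes were at or above it and were selected on an mRNA response. The counts are therefore set beside all genes as descriptions only. MT1G was the 1 gene with a peak in TSA-treated cells and none in vehicle-treated cells, a pattern held by 5.72% of genes. These are lists cut at a lower limit, and a gene missing from a list may lie just below it.

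The MT1G peak of TSA-treated cells scored close to these limits, and MT1G has no score in vehicle-treated cells. The peak ran from 56701460 to 56702464 on chromosome 16, with an Fseq score of 0.0396, a smoothed density of reads. The lowest score in the list of TSA-treated cells was 0.0377, and the lowest in the list of vehicle-treated cells was 0.0390. The MT1G score stood above only 7.80% of TSA peaks and was 1.02 times the lower limit of the vehicle list. The pooled lists therefore do not show how far accessibility at MT1G differed between the conditions.

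At the start sites with a peak in both lists, 3 of 4 genes had a lower score in TSA-treated cells. MT2A scored 0.0694 in TSA-treated cells and 0.0913 in vehicle-treated cells, a ratio of 0.761. MT1F scored 0.0755 in TSA-treated cells and 0.104 in vehicle-treated cells, a ratio of 0.724. MT1X scored 0.108 in TSA-treated cells and 0.112 in vehicle-treated cells, a ratio of 0.964. MT3 scored 0.0432 in TSA-treated cells and 0.0429 in vehicle-treated cells, a ratio of 1.01. Over 26828 peaks that overlapped 1 to 1 between the lists, the median ratio was 1.07, the quartiles were 0.890 and 1.28, and 39.8% scored lower in TSA-treated cells. The ratios of MT2A and MT1F lay below the lower quartile and those of MT1X and MT3 within the quartiles. Each score is a single pooled value, how scores were scaled between conditions is not given in the sources used here, and no test was made.

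**Figure D3:**
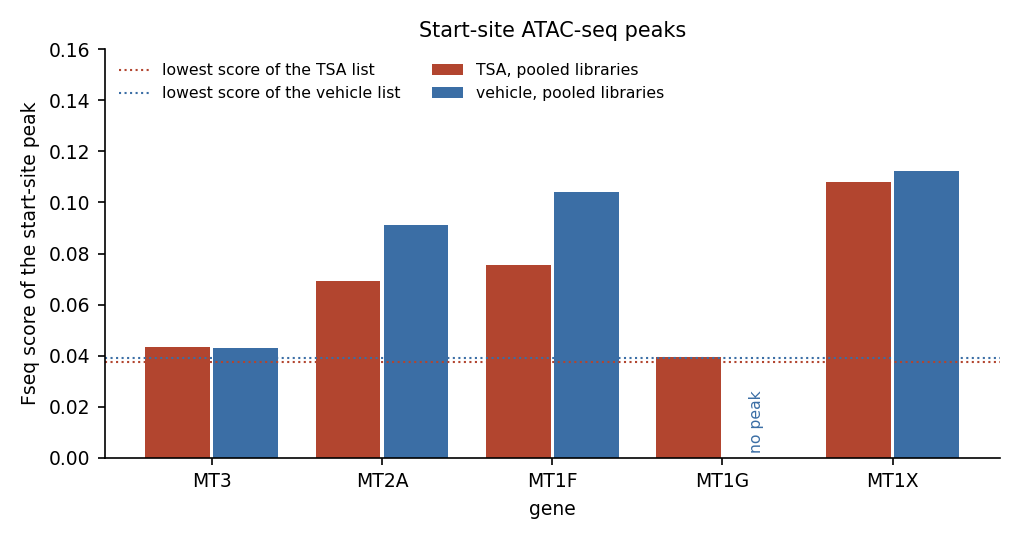
Fseq scores of ATAC-seq peaks at the start sites of the 5 genes that have one, for pooled TSA libraries (red) and pooled vehicle libraries (blue), with the lowest score of each list as a dotted line. MT2A and MT1F score lower in TSA-treated cells, at 0.0694 against 0.0913 and 0.0755 against 0.104, and MT1G, at 0.0396, sits just above the dotted lines.

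The peaks also differed in position and width. The MT2A peak ran from 56642014 to 56642764 in TSA-treated cells and from 56642022 to 56643306 in vehicle-treated cells, so that both began at nearly the same base and covered the promoter printed above. The MT1X peak ran from 56715677 to 56717451 in TSA-treated cells and from 56715734 to 56717682 in vehicle-treated cells. The MT1F peak ran from 56691260 to 56692680 in TSA-treated cells and from 56691098 to 56692539 in vehicle-treated cells. The MT3 peak ran from 56622977 to 56623728 in TSA-treated cells and from 56622814 to 56623820 in vehicle-treated cells. All 4 lie on chromosome 16 and overlap an exon of their gene.

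The authors also counted reads over sites merged from both lists, and averaged them over libraries, with MT1X again the highest and MT3 and MT1G the lowest of the 5 start sites. MT1X averaged 5.23 log2 CPM, MT2A 5.04, MT1F 4.50, MT3 3.40 and MT1G 3.23, against a median of 3.54 over 51909 sites. The genes highest per kb, MT2A, MT1X and MT1G, each had a start-site peak in TSA-treated cells, and MT1G had none in vehicle-treated cells. Among the rest of the 9 genes, the presence of a peak did not follow the order of mRNA levels. MT3 had the lowest level per kb and a peak in both lists, while MT1M, at 4.71 log2 CPM per kb beside 4.62 in MT1F, had none in either. The levels of MT1M and MT1F cannot be said to differ.

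For the 4 genes with no start-site peak in either list, the nearest peak lay some way off. It was 16.6 kb from a start of MT1E in TSA-treated cells and 16.1 kb in vehicle-treated cells. It was 10.2 kb from MT1M in TSA-treated cells and 10.3 kb in vehicle-treated cells, and 4.24 kb from MT1A in TSA-treated cells and 4.31 kb in vehicle-treated cells. For MT1H it was 1.26 kb in TSA-treated cells, where it is the MT1G peak, and 11.2 kb in vehicle-treated cells. Of the 50-base windows around these starts, 2.38% in MT1E, 3.61% in MT1M, 0.19% in MT1A and 0% in MT1H were found more than once in GRCh37. At the 5 starts with a peak the share ran from 0% in MT1X to 5.23% in MT3. The part of repeated sequence in the missing peaks was not tested.

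The highest peak of the cluster belonged to none of the 9 genes. It lay at MT1DP, a metallothionein pseudogene, with a score of 0.162 in TSA-treated cells, above 92.4% of that list, and 0.155 in vehicle-treated cells, above 93.1% of that list. Its span was 56676819 to 56678575 in TSA-treated cells and 56676888 to 56678220 in vehicle-treated cells, and it was the nearest peak to MT1A.

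Within 50 kb of the 9 genes, 4 of 11 peaks of TSA-treated cells overlapped none of vehicle-treated cells, where 32.8% of all TSA peaks did so. Of the 7 peaks of vehicle-treated cells, 0 were without a TSA counterpart, where 28.8% of all vehicle peaks were. Besides the MT1G peak, the TSA peaks without a counterpart lay at 56601570 to 56602005, over an exon of MT4, at 56610728 to 56611286, in an intron of BBS2, and at 56725536 to 56726274, between genes, 9.15 kb from MT1X. Their scores were 0.0397, 0.0386 and 0.0395. All 4 scores were low for their list, above 3.68% to 8.08% of it, against a median of 24.7% for all TSA peaks without a counterpart. The 2 other shared peaks lay in an intron of BBS2, scoring 0.0598 in TSA-treated cells and 0.0839 in vehicle-treated cells, and at the start of NUP93, scoring 0.0662 in TSA-treated cells and 0.0717 in vehicle-treated cells. The NUP93 peaks were the farthest taken, with centres 47.6 kb from an MT1X start in both conditions, and the next peaks outside the limit lay 68.9 kb from an MT3 start, in both conditions, over an exon of BBS2.

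**Figure D4:**
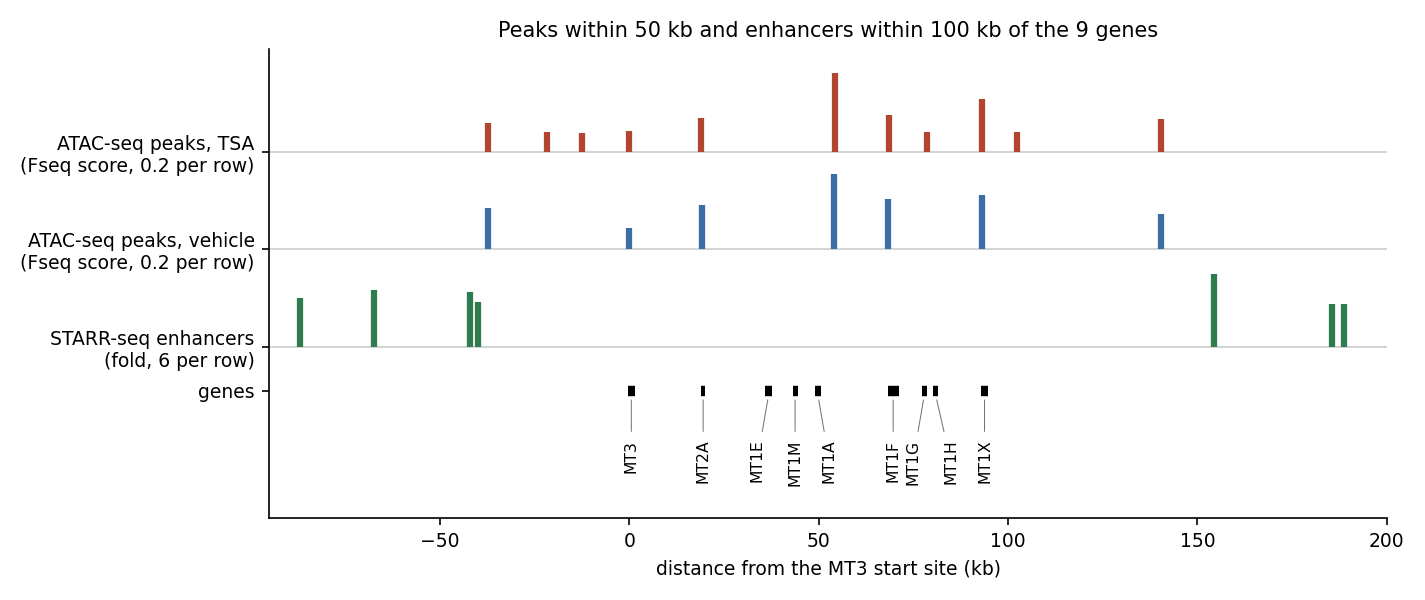
The metallothionein cluster by distance in kb from the MT3 start site, with ATAC-seq peaks within 50 kb in TSA-treated cells (red) above those in vehicle-treated cells (blue), STARR-seq enhancers within 100 kb (green) and the 9 genes (black); bar heights are Fseq scores or fold enrichment. The 11 TSA peaks include 4 without a counterpart among the 7 vehicle peaks, and no enhancer lies between the genes.

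STARR-seq found no enhancer inside the cluster. Of the 9 genes, 8 had no enhancer within 50 kb of a start site, while 96.0% of 21523 genes had at least 1. The 9 genes share 1 stretch of chromosome, so they count as 1 locus and not as 9 cases. The 2 enhancers that met the distance rule both lay on the MT3 side and, among the 9 genes, were near MT3 alone. The nearest start to each was that of MT4, a metallothionein gene outside the 9, at 15.2 kb and 17.2 kb from their edges. Both enhancers were closed, meaning that they overlapped no DNase I site, and neither overlapped an ATAC-seq peak in TSA-treated or in vehicle-treated cells. Open enhancers within 50 kb numbered 0 for all 9 genes, while 56.2% of genes had at least 1.

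The enhancer nearest to MT3 ran from 56583352 to 56583831, in an intron of BBS2, 39.4 kb from the MT3 start site. Its fold enrichment was 2.74, from 48 output fragments (95% exact Poisson interval 35.4 to 63.6) against 16.9 expected from the scaled input, with a −log10 q-value of 7.54. The other ran from 56580920 to 56581743 in the same gene, 41.7 kb from MT3, with a fold of 3.37 from 53 output fragments (39.7 to 69.3) and a −log10 q-value of 11.6. On the MT1X side, the first enhancer lay outside the 50 kb limit, at 61.4 kb, from 56777548 to 56778095 in an intron of NUP93. It was also closed, with a fold of 4.47 from 54 output fragments (40.6 to 70.5) against 11.3 expected from the scaled input. Output fragments were recovered from the authors' fold and p-value, where the fold is the ratio after 1 is added to both the output and the expected value. The expected value is the one behind the p-value and may differ from the input count at the summit. The intervals cover counting error only and treat fragments as independent. The authors kept a fragment again where it occurred in several separately indexed PCR libraries, so the intervals may be too narrow.

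The span from 56583832 to 56777547 on chromosome 16 thus held no enhancer over 193.7 kb. Between neighbouring enhancers the median gap was 17.8 kb, and 799 of 94503 gaps in the genome, or 0.845%, were at least as long. On chromosome 16, 13 of 3244 gaps, or 0.401%, were. These shares count gaps and not bases, and stretches of the genome where no enhancer could be called were not left out. Long gaps take up a larger share of the bases, which was not computed, so a place in the genome falls in such a gap more often. The span held the starts of 17 genes of the mRNA-seq table. In this span, 1.2% of 100-base windows and 5.6% of 50-base windows were found more than once in GRCh37, and their part in the length of the span was not tested. How many input fragments covered it is unknown here.

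Each gene's distance to its nearest enhancer follows from its place in that span. It was 39.4 kb for MT3, 58.9 kb for MT2A, 75.8 kb for MT1E, 82.98 kb for MT1M, 89.0 kb for MT1A, 85.9 kb for MT1F, 75.8 kb for MT1G, 74.1 kb for MT1H and 61.4 kb for MT1X. The median over 21523 genes was 5.51 kb. Of those genes, 6.3% were at least as far from an enhancer as MT3, and 1.34% at least as far as MT1A.

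**Figure D5:**
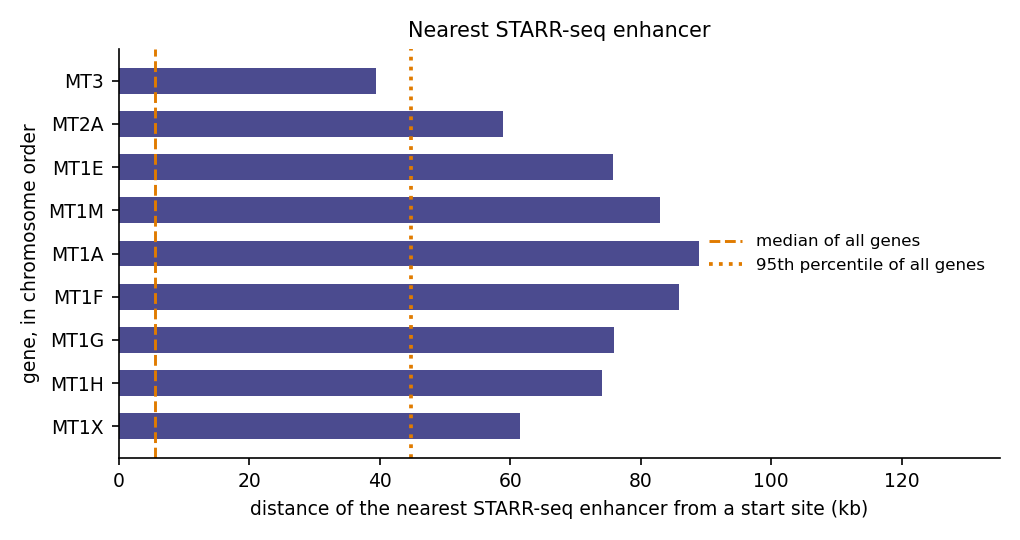
Distance in kb from a start site of each of the 9 genes to the centre of the nearest STARR-seq enhancer, as bars in chromosome order, with the median (dashed) and the 95th percentile (dotted) of all genes. The bars run from 39.4 kb in MT3 to 89.0 kb in MT1A, and the median of all genes is 5.51 kb.

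Of the 6 other metallothionein rows of the table, 5 averaged at least 1 CPM, where 66.3% of all genes did. The share of repeated windows was not computed for these rows, so how far their reads are their own is unknown. MT1DP averaged 3.62 log2 CPM, MT1L 3.54, MT1JP 3.33, MT1B 2.97 and MT1IP 1.05, all of them type 1 genes or pseudogenes. MT4, a metallothionein of stratified epithelia, was at the lowest value of the table, which 2019 genes shared. The genes on either side of the cluster were BBS2, which encodes a subunit of the ciliary BBSome, at 6.31 log2 CPM, and NUP93, which encodes a nuclear pore protein, at 8.14 log2 CPM, both with a start-site peak in both conditions.

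Most genes of zinc and copper handling were expressed. Of 32 genes for MTF1, zinc and copper transporters, copper chaperones and the copper and zinc enzyme SOD1, 30 averaged at least 1 CPM, where 66.3% of all genes did, with a median of 5.25 log2 CPM. MTF1 averaged 5.04 log2 CPM and SLC30A1, the zinc exporter of the cell surface and itself a target of MTF1, 4.02 log2 CPM. On the log2 CPM scale, which is not corrected for length, SLC30A4 was the highest of the list at 8.15 log2 CPM and SLC30A8, the zinc transporter of insulin granules, the lowest at -2.04 log2 CPM.

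Markers of the cell line and of other cells were also looked up. All 7 prostate luminal markers described (KLK3, KLK2, TMPRSS2, FOLH1, HOXB13, KRT8 and KRT18) averaged at least 1 CPM, from 4.41 to 11.2 log2 CPM, where 66.3% of all genes reached 1 CPM. Of 6 markers of other cells, COL1A1 at 6.77, KRT5 at 6.23 and COL1A2 at 0.37 log2 CPM were also at or above 1 CPM, while PTPRC, PECAM1 and TP63 were at -1.89, -2.27 and -1.89 log2 CPM. The limit of 1 CPM thus did not separate the 2 lists, and COL1A1 and KRT5 averaged above KLK2 and TMPRSS2, without correction for length. The part of these in the metallothionein levels was not tested.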

How the data were processed

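All groups were LNCaP cells except the WHG-STARR-seq input library, which was plasmid DNA, and samples were grouped by their GEO labels. The members and gene lists were chosen with earlier results of these data known. The deposited tables of genes and of merged ATAC-seq sites hold, per row, the authors' average as log2 CPM, which was used here. They also hold the fold changes, likelihood ratios, p-values and q-values of the authors' comparison of TSA with vehicle by edgeR, which were not used. For mRNA-seq the authors aligned reads to hg19 with TopHat and counted them per RefSeq gene. For ATAC-seq they used Bowtie, cutadapt, Bowtie2 and Picard, shifted reads to the transposase cut, and called peaks with Fseq on pooled libraries, and the deposited lists give an Fseq score per peak. For WHG-STARR-seq the authors collapsed duplicate fragments within each indexed PCR library and kept those shared between such libraries. They pooled both output replicates and called enhancers with MACS2 at a q-value under 0.05. The deposited lists give the fold enrichment over input as a ratio, the −log10 p-value and the −log10 q-value. Open enhancers carry a deposited score of their DNase I site, which was not used. No source used here gives the versions of these tools. The untreated mRNA-seq libraries were not analysed here. The depth of each library is unknown, so no error between replicates is given.

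Regions were placed against GENCODE release 44 start sites (basic set, lifted to GRCh37), and 21523 of 22336 gene symbols (96.4%) matched a start site by their name or a RefSeq synonym. Output fragments at a summit were recovered from fold and p-value, with exact Poisson intervals. Windows of 50 and 100 bases were counted in all of GRCh37 on both strands. The recovery of fragments, the intervals and the window counts were tested on simulated data, and the placing of regions was not. The simulated folds and p-values followed the formula that the recovery inverts, so that test checks the calculation alone. No test was made between TSA and vehicle. Tables were handled with pandas 2.3.3 and numpy 2.4.6 in Python 3.11.15, intervals came from scipy 1.17.1 and plots from matplotlib 3.10.9. The text names all 9 genes, the other metallothionein rows, the gene on either side, MTF1, SLC30A1 and the highest and lowest of the zinc and copper list, every start-site peak and every enhancer within 50 kb. The alternatives were other distances, q-value limits, peak score limits, overlaps, start-site windows and scales. A further marker gene is not reported here, irrespective of its value.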

Additional observations from a re-analysis of the deposited data

How the results depend on the processing

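Of 29 alternatives that were tried, 23 left the count or value within 1.5 times, or unchanged, and 6 moved it. The median percentile of the 9 genes was 53.4 among all genes, 29.6 among genes at or above 1 CPM and 84.4 per kb of transcript. The number of STARR-seq enhancers near the genes was 2 within 50 kb, 0 within 25 kb, 7 within 100 kb and 1 at a q-value under 1e-10. The number of ATAC-seq peaks of TSA-treated cells within 50 kb was 11, and 6 among peaks at or above the median Fseq score of the list, where vehicle-treated cells had 6 of 7. In that selection the 4 TSA peaks without a vehicle counterpart were no longer present. The counts of start-site peaks, 5 in TSA-treated cells and 4 in vehicle-treated cells, were the same with a window from 250 bases before to 50 bases after the start and with the most upstream start alone. No paired analysis was possible because the values used here are averages or pools over libraries, and for the same reason leaving out a replicate was not run. A pooled score or an average without its replicate error limits every comparison of TSA with vehicle to a description.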
